A study of Mus musculus with 6 samples.

Results

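This account covers array probes that the platform annotation assigns to more than 1 gene, and that read differently after Cre transduction of mouse pre-B cells that carry BCR-ABL1. A member was a probe with 2 or more gene symbols for which all 3 Cre arrays lay above, or all 3 below, the 3 empty vector (EV) arrays, with group means at least 0.4 log2 apart. So the members were selected on these same 6 arrays, by their lack of overlap and the size of their difference. Of 25006 probes, 1521 had several symbols, and 42 of these met the rule. After 2 immunoglobulin probes and 4 small nucleolar RNA probes were skipped, 36 probes remained, naming 98 genes in 19 groups. Both groups of arrays came from pre-B cells of mouse bone marrow with floxed alleles of Ppp2r1a, transduced with the oncogene BCR-ABL1. Cre removes the floxed gene, which encodes the scaffold subunit of protein phosphatase 2A, while the EV cells kept it and are called wild type in the labels. No array had Cre in cells without floxed alleles, so an effect of Cre itself and one of losing Ppp2r1a cannot be told apart. The labels number 3 repeats per group without naming mice, cultures or batches, so any p reflects how far the arrays of a group lay apart, and that distance may be technical. Neither the time after Cre nor the number of mice is given in the sources used here. In bulk RNA, fewer cells of a type and less RNA per cell cannot be told apart.

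Ppp2r1a checked the labels: its probe (10442155) read 7.12, 6.98 and 6.92 in Cre and 9.06, 9.05 and 9.06 in EV, and it fell in limma's fit over all probes by 2.05 log2 (SE 0.07, n = 3, adjusted p = 4.41e-05). Medians of the 6 arrays lay between 5.22 and 5.27 log2. Of 12 B lineage markers, 11 were measured, and their mean level was 9.88 to 10.04 in the Cre arrays and 10.35 to 10.41 in the EV arrays. The 3 of them that fell were Rag1, Rag2 and Dntt, with differences of -2.09, -1.84 and -0.48, and their part in the values below was not tested. The other measured markers differed by between -0.24 (Ebf1) and 0.14 (Cd79a) and did not pass. Marker lists of T, myeloid, erythroid, natural killer, stromal and mast cells had array means between 3.23 and 4.95, with 0 members passing limma's adjusted p of 0.05.

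Genes share a probe on this kind of array when their transcripts are too alike to be measured apart, or when the transcripts overlap. Families that arose by repeated duplication are the usual source: X-linked lymphocyte-regulated (Xlr) genes, zinc finger repressors, serpins, chemosensory receptors. A reading from such a probe is a mixture, and which gene supplied it cannot be read from the probe itself. Sorted by hand from names and RefSeq biotypes, 29 of the 36 probes, in 15 of the 19 groups, name paralogues. Some of these also name a pseudogene (Gm2381, Gm14327 or Znf41-ps) or a non-coding gene (Gm14403) of their cluster. The other 7 probes were not counted as paralogues. They name a gene with its pseudogene (Rmnd1 and Gm5512), or the non-coding genes Gm3912 and Gm45351 with or without Zfp772. Others name a microRNA with its host transcript (Mir92-1 and Mir17hg), or unrelated neighbours (Dzip1 and Cldn10). The probes named between 2 and 16 genes each, 21 of them 2 or 3, and 34 named genes of a single chromosome.

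In 20 of the 36 probes, from 11 groups, the Cre arrays were lower, and in 16, from 8 groups, they were higher. The median size of the difference was 0.62 log2, beside 0.09 over all probes, and 10 probes differed at least 2-fold, 9 of them lower in Cre. The same rule took 2.76% of probes with several symbols (1.38% higher and 1.38% lower in Cre), 3.87% of probes with 1 symbol, 3.47% of those with none and 3.77% of all probes (1.5% higher and 2.28% lower). Since the rule used this contrast, these shares and the values below describe the choice and carry no test. Many of the signals were dim: in 14 probes even the higher group mean lay below the lowest array median, and in 25 the lower one did. No pair of the 36 had identical values, although 154 of the 1521 shared probes repeat the 6 values of another.

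The widest differences were at Xlr4a, Xlr4b and Xlr4c, copies on the X chromosome of a family named for its regulated expression in lymphocytes, of which Xlr4b and Xlr4c are known as imprinted genes. Probe 10605034 read 3.11, 3.29 and 2.90 in Cre and 5.65, 5.98 and 5.44 in EV, which is 6.01-fold lower. Probe 10604984 read 3.18, 3.38 and 3.18 in Cre and 5.64, 6.10 and 5.60 in EV, 5.79-fold lower. Probe 10600131 read 3.25, 3.25 and 3.18 in Cre and 5.61, 6.05 and 5.56 in EV, 5.71-fold lower. All 3 probes name the same genes, so they are repeated readings of one mixture and not separate findings. The Cre values were among the lowest of the members, and the EV values stood above the array medians. Sister families lie next to them on the X chromosome. Shared probes of Xlr3a, Xlr3b and Xlr3c differed by 0.01, -0.08 and -0.11, and those of Xlr5a, Xlr5b and Xlr5c by 0.18 and 0.12, with overlapping groups at each. All were dim, with group means of 2.68 to 2.94 for Xlr3 and 3.24 to 3.94 for Xlr5. The Xlr3 probes read below even the Cre level of Xlr4, where a fall could hardly show.

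The 250 bases before the start of each Xlr4 gene, from RefSeq's table for GRCm38.p6, show how alike the copies are. They are given 5′ to 3′ on the gene's strand, at chrX:73082508-73082757 (minus strand), chrX:73214083-73214332 (plus) and chrX:73243131-73243380 (minus). Capitals mark the bases of Xlr4b and Xlr4c that a global alignment left unmatched with Xlr4a.

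Xlr4a: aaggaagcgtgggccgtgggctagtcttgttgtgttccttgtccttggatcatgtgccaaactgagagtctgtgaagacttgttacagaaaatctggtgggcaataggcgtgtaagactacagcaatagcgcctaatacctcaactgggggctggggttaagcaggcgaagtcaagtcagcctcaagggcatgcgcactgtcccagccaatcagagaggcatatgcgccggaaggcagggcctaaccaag

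Xlr4b: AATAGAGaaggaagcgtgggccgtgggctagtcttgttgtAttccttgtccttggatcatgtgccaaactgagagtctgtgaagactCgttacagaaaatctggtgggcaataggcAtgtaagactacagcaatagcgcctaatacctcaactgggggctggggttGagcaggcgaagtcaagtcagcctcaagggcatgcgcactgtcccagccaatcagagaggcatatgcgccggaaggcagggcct

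Xlr4c: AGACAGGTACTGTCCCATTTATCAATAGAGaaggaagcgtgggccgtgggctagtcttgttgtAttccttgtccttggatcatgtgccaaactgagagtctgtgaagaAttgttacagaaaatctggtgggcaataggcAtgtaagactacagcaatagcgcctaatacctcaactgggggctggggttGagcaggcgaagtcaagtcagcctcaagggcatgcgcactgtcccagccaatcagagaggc

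Identity over the alignment was 93.0% for Xlr4a and Xlr4b, 77.1% for Xlr4a and Xlr4c and 82.4% for Xlr4b and Xlr4c. Of the bases unmatched with Xlr4a, 11 in Xlr4b and 34 in Xlr4c, most form a run at the upstream end. There the sequences of Xlr4b and Xlr4c begin farther upstream than that of Xlr4a, and both stop before its last bases. These overhangs have no counterpart in the other sequence shown, so they do not show that the copies differ there. The identities count them as unmatched and so understate how alike the copies are. Within the stretch shared with Xlr4a, each sequence is nearly the same. For scale, genes of different groups had a median identity of 46.2% over 2637 pairs. All 3 sequences hold the letters CCAAT, on one strand or the other, the core bound by the factor NF-Y.

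Claudin-like genes of the Cldn34c group, also X-linked, came next. Probe 10601595, shared by Cldn34c1, Cldn34c4 and Gm2411, read 2.84, 2.70 and 2.71 in Cre and 4.94, 5.24 and 4.59 in EV, 4.51-fold lower. Probe 10601598 read 2.85, 2.78 and 2.84 in Cre and 4.92, 5.19 and 4.57 in EV, 4.20-fold lower. Probe 10601588 read 3.42, 3.45 and 3.42 in Cre and 5.27, 5.78 and 5.15 in EV, 3.92-fold lower. The Cre arrays lay close together at all 3, and the EV arrays spread wider, with EV replicate 3 the lowest of them. Claudins form tight junctions between epithelial cells, and the EV levels here were near or below the array medians. Cldn34c4 also has a probe of its own (10606589), which read 4.05, 4.21 and 3.99 in Cre and 4.04, 3.89 and 4.17 in EV. Its groups overlapped, and the difference of 0.05 (SE 0.09, n = 3) did not pass (limma adjusted p = 0.859). That difference was not tested against those of the shared probes. Probes of Cldn34b2, Cldn34b3 and Cldn34b4, relatives on the same chromosome, differed by -0.03, 0.06 and -0.15 and did not pass.

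Tmsb15b1, Tmsb15b2 and Tmsb15l encode thymosins of the beta kind, small proteins that bind actin monomers. Their shared probe (10606902) read between 3.73 and 4.22 in Cre and between 5.01 and 5.30 in EV, 2.22-fold lower and with no overlap. Tmsb15a, with its own probe, differed by -0.06 (SE 0.10; limma adjusted p = 0.831). Rtl8a and Rtl8b, which descend from the Gag gene of an ancient retrotransposon, were the X-linked genes that read higher in Cre. Probe 10604633 read 5.30, 5.34 and 5.46 in Cre and 5.03, 4.79 and 4.99 in EV, 1.35-fold higher, and a further shared probe (10604637) differed by 0.36 without overlap, just short of the rule. A lack of overlap alone, of any size, was found for 23.4% of all probes. Rtl8c, the neighbouring copy, lay the other way on its single-gene probe, at 4.22 ± 0.147 in Cre and 4.64 ± 0.0662 in EV (SD, n = 3), but did not pass (difference -0.42, SE 0.09; limma adjusted p = 0.0584).

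Of the 36 probes, 8 were X-linked (22.2%), 7 lower in Cre and 1 higher, against 99 of 1474 shared probes with a known chromosome (6.72%) and 775 of 21443 single-gene probes (3.61%). The 8 cover 4 gene groups and are not independent of each other. At all 7 that were lower in Cre, EV replicate 2 was the highest EV array. That was so too at most other members lower in Cre, those of Rmnd1, Pnp and Mir17hg among them, so it does not set the X-linked probes apart. Xist, the RNA of the inactive X chromosome, differed by -0.05 (SE 0.05) and did not pass (limma adjusted p = 0.721).

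Zinc finger genes were named on 11 of the 36 probes. Most such genes encode KRAB zinc finger proteins, repressors that bind DNA by arrays of fingers and are best known for silencing transposable elements. They lie in clusters of recent duplicates, and the clusters differed in direction here: the 5 probes of a chromosome 4 cluster were higher in Cre, and the 6 of chromosomes 2 and 7 were lower.

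On chromosome 4, probe 10510178, which names 13 genes including Zfp991, Zfp985 and Rex2, read 5.91, 6.03 and 5.85 in Cre and 5.25, 5.42 and 5.36 in EV, 1.50-fold higher. Probe 10518335 was brighter, at 8.28, 8.22 and 8.32 in Cre and 7.79, 7.89 and 7.86 in EV, 1.34-fold higher. Probes 10510167 and 10490854, with the same 10 genes, read 6.81 to 6.93 and 7.58 to 7.67 in Cre and 6.26 to 6.45 and 7.04 to 7.22 in EV, 1.40-fold and 1.38-fold higher. The dimmest, 10510201, named 6 genes and read 3.43, 3.47 and 3.60 in Cre and 2.97, 3.16 and 3.18 in EV. At each of the 5, EV replicate 1 was the lowest array. A further shared probe of the cluster (10518346) differed by 0.38 with no overlap. So all 6 shared probes that name these genes were higher in Cre. But 5 of them were members, chosen for their difference, and the gene lists overlap, so this is no test of the cluster. Single-gene probes of the cluster were mixed: of 8, 1 rose and 7 did not pass. Zfp991 rose from 5.63 ± 0.0257 to 6.27 ± 0.0748 (SD, n = 3), by 0.64 log2 (SE 0.06; limma adjusted p = 0.00318), and it kept its call whichever array was left out. Zfp985 had 3 probes, which differed by 1.08 (SE 0.22), 0.51 (SE 0.19) and 0.27 (SE 0.26), with limma adjusted p from 0.0555 to 0.678. The first of these (10510150) passed without Cre replicate 3 (difference 1.35; limma adjusted p = 0.00527). Probes of Zfp980, Zfp600, Zfp982 and Zfp979 had group means between 1.91 and 2.27, close to the floor of the arrays at 1.22, and differed by -0.13 to -0.01.

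On chromosome 2, probe 10479217 named 14 genes, Zfp965, Zfp966, Zfp967, Zfp970, Zfp971 and Zfp973 among them. It read 6.43, 6.34 and 6.32 in Cre and 6.95, 6.98 and 6.94 in EV, 1.51-fold lower, with a narrow spread in both groups. A further 17 shared probes name some of the same genes, but they hold only 6 distinct sets of values. Of those sets, 4 were lower in Cre without overlap, by 0.24 to 0.34, and 2 overlapped (0.01 and 0.09). Over all probes 23.4% lacked overlap in either direction, and the sets name many of the same genes. The single-gene probe of Gm14403, a non-coding gene of this cluster, fell from 5.31 ± 0.205 to 4.51 ± 0.122 (SD, n = 3), by 0.81 log2 (SE 0.12; limma adjusted p = 0.0153). Leaving out Cre replicate 2 or 3, or EV replicate 2, ended this call (adjusted p up to 0.0689). Zfp971 differed by -0.26 (SE 0.08; adjusted p = 0.173) and Zfp931 by -0.50 (SE 0.31; adjusted p = 0.503), and neither passed.

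Chromosome 7 held another pair of groups, both lower in Cre. Probe 10559878, of the non-coding genes Gm3912 and Gm45351, read 4.50, 4.65 and 4.46 in Cre and 5.44, 5.51 and 5.51 in EV, 1.94-fold lower. Probes 10549932 and 10559919, which name Zfp772 as well, read 4.62 to 4.77 in Cre and 5.16 to 5.48 in EV, 1.59-fold and 1.55-fold lower. The single-gene probe of Zfp772 (10559831) had overlapping groups, at 5.73 ± 0.376 in Cre and 6.13 ± 0.0473 in EV (SD, n = 3), with Cre replicate 1 at the level of the EV arrays, and it did not pass (difference -0.40, SE 0.17; limma adjusted p = 0.322). Without Cre replicate 1 it fell by 0.61 (SE 0.08; limma adjusted p = 0.0256). Farther along the chromosome, 3 shared probes name Zfp936, Zfp975, Zfp976, EU599041 or the pseudogene Gm2381. Probe 10562651 read 3.80, 3.76 and 3.87 in Cre and 4.48, 4.66 and 4.49 in EV, 1.66-fold lower. Probe 10552358 read 3.85 to 4.08 in Cre and 4.59 to 4.78 in EV, 1.59-fold lower, and probe 10552363 read 3.77 to 3.88 in Cre and 4.27 to 4.45 in EV, 1.43-fold lower. Their Cre means lay between 3.81 and 3.99, and their EV means between 4.34 and 4.66, all below the array medians. Zfp975 alone differed by -0.47 (SE 0.32) with a wide spread in Cre (5.09 ± 0.688, SD, n = 3), and did not pass (limma adjusted p = 0.544).

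Mir17hg is the host transcript of a cluster of microRNAs known as drivers of B cell lymphoma and as targets of the transcription factor MYC. A microRNA represses transcripts that pair with its seed, bases 2 to 8. The main arms of the cluster's 6 hairpins, from RefSeq's table for GRCm38.p6, are given with the seed in capitals. They lie on the plus strand of chromosome 14, from chr14:115043684-115043706 for the first to chr14:115044476-115044496 for the last.

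mmu-miR-17-5p: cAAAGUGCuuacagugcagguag

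mmu-miR-20a-5p: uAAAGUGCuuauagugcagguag

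mmu-miR-18a-5p: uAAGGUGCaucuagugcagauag

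mmu-miR-19a-3p: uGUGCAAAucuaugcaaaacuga

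mmu-miR-19b-3p: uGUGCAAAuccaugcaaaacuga

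mmu-miR-92a-3p: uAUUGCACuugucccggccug

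By seed, miR-17-5p and miR-20a-5p share AAAGUGC, and miR-19a-3p and miR-19b-3p share GUGCAAA, while miR-18a-5p (AAGGUGC) and miR-92a-3p (AUUGCAC) stand alone. The shared probe (10416958) names Mir92-1, the last hairpin, with Mir17hg. Of the 6 hairpins, 1 lies inside RefSeq's model of Mir17hg in this build, and it is Mir92-1. The probe read 6.05, 5.84 and 6.08 in Cre and 6.63, 6.69 and 6.62 in EV, 1.58-fold lower with no overlap. The labels name total RNA and biotin-labelled cRNA, and the size of the RNA behind these readings was not tested.

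The other 5 hairpins have single-gene probes, which the rule did not use. They were taken as a set with their values known. Mir17 fell from 7.57 ± 0.157 to 6.69 ± 0.229 (SD, n = 3), by 0.87 log2 (SE 0.13; limma adjusted p = 0.0183). Mir18 fell by 0.80 (SE 0.14; limma adjusted p = 0.0307). Mir19b-1 fell from 5.80 ± 0.0913 to 4.67 ± 0.187 (SD, n = 3), by 1.13 (SE 0.10; limma adjusted p = 0.00263), the widest of the set, and it kept its call whichever array was left out. Mir20a read 4.93, 5.09 and 5.76 in Cre and 6.20, 6.29 and 6.06 in EV, without overlap, but did not pass (limma adjusted p = 0.0707), and neither did Mir17hg's own probe (difference -0.44, SE 0.09; adjusted p = 0.061). With 1 array left out, Mir20a passed only without Cre replicate 3 (difference -1.17, limma adjusted p = 0.00632). With any other array left out it did not pass (limma adjusted p from 0.138 to 0.206). Mir19a was dim, at 2.65 ± 0.555 in Cre and 3.00 ± 0.478 in EV (SD, n = 3), with overlapping groups (difference -0.35, SE 0.32; adjusted p = 0.671). The call of Mir17 ended on leaving out Cre replicate 2, or EV replicate 1 or 2 (adjusted p up to 0.0659), and that of Mir18 on leaving out Cre replicate 2 or any EV replicate (up to 0.112). Other copies of miR-92, Mir92-2 and Mir92b, differed by -0.08 (SE 0.06) and 0.04 (SE 0.09) and did not pass. Myc fell in the same arrays, by 1.00 log2 (SE 0.17; limma adjusted p = 0.0256), a call that held only on leaving out Cre replicate 3 and ended for each of the other 5 arrays (adjusted p up to 0.0945). Whether it bears on these readings was not tested.

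Rmnd1 and Pnp had bright shared probes, all lower in Cre. Rmnd1 is a nuclear gene required for translation in mitochondria, on chromosome 10, and shares its probes with the transcribed pseudogene Gm5512 on chromosome 19. Probe 10461782 read 7.75, 7.54 and 7.63 in Cre and 9.01, 9.05 and 8.89 in EV, 2.54-fold lower, and probe 10361620 read 7.73 ± 0.112 in Cre and 9.06 ± 0.0709 in EV (SD, n = 3), 2.52-fold lower. The readings of gene and pseudogene thus could not be separated, and neither has a single-gene probe in the table. Pnp, the purine nucleoside phosphorylase that salvages purine bases, shares probe 10414527 with its neighbour Pnp2. It read 10.64, 10.46 and 10.54 in Cre and 11.01, 11.03 and 10.89 in EV, 1.35-fold lower and the brightest of the 36. Pnp's own probe (10414514) fell by 0.40 (SE 0.07; limma adjusted p = 0.0291), from 10.97 ± 0.0686 to 10.57 ± 0.0802 (SD, n = 3), a call that ended whichever of the 6 arrays was left out (adjusted p up to 0.107).

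Immune genes were among the probes that read higher in Cre. Serpinb9d, Serpinb9e, Serpinb9f and Serpinb9g belong to a mouse expansion of the serpin that inhibits granzyme B, a protease of killer lymphocytes. Probe 10404472 read 6.06, 6.02 and 5.75 in Cre and 5.43, 5.38 and 5.11 in EV, 1.56-fold higher, and probes 10404479 and 10404464 name the same genes. The first read 5.78 ± 0.166 in Cre and 5.17 ± 0.152 in EV (SD, n = 3; 1.52-fold), and the second 5.98, 5.98 and 5.84 in Cre and 5.61, 5.46 and 5.07 in EV (1.46-fold). In each of the 3, repeat 1 was the highest array of both groups. Of the 4 copies, Serpinb9e and Serpinb9d have probes of their own, whose differences were not tested against each other. Serpinb9e read 5.57 ± 0.0493 in Cre and 4.97 ± 0.336 in EV (SD, n = 3), without overlap, but did not pass (difference 0.60, SE 0.16; limma adjusted p = 0.112). Serpinb9d was at 3.48 in both groups (difference 0.00, SE 0.09; limma adjusted p = 0.999). Among relatives, Serpinb9c differed by 0.56 (SE 0.15; adjusted p = 0.119), Serpinb9 by 0.29 (SE 0.12) and Serpinb9b by -0.03 (SE 0.12), and none passed.

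The 250 bases before Serpinb9e (chr13:33249358-33249607) and Serpinb9d (chr13:33192705-33192954), both on the plus strand of GRCm38.p6 in RefSeq's table, are set side by side because these copies share probes and also have their own. Capitals mark the bases of Serpinb9d that the alignment left unmatched with Serpinb9e.

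Serpinb9e: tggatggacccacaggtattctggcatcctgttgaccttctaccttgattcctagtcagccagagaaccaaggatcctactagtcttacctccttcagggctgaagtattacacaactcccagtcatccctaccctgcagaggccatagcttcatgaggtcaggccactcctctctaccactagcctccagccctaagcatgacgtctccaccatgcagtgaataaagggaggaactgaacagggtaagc

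Serpinb9d: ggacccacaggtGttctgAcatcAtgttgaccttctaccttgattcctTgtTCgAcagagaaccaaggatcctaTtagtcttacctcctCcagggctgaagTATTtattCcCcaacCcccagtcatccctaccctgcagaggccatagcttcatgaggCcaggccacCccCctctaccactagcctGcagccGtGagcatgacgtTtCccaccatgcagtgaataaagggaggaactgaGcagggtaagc

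Their identity was 88.2%, with 25 unmatched bases in Serpinb9d spread along the sequence. Over the 4 copies it ranged from 80.4% (Serpinb9d and Serpinb9f) to 92.9% (Serpinb9e and Serpinb9g).

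Ly6c1 and Ly6c2 encode the antigen Ly6C, a lipid-anchored surface protein used as a marker of monocytes and plasma cells. Probe 10429568 read 5.35, 5.47 and 5.37 in Cre and 4.91, 4.70 and 5.10 in EV, 1.41-fold higher. Probe 10429573 read 4.68, 4.69 and 5.03 in Cre and 4.56, 4.08 and 4.32 in EV, 1.40-fold higher, with its lowest Cre and highest EV arrays close together. Ifi204 and Ifi211, interferon-inducible proteins of the PYHIN family that bind DNA, share probe 10360382. It read 5.39, 4.86 and 4.88 in Cre and 4.07, 4.54 and 4.45 in EV, 1.61-fold higher, with wide spreads (SD 0.299 and 0.25). Single-gene probes whose symbols have the stem Ifi, a set by name that is wider than their family, did not pass in limma. Of 12 such probes 0 passed, with 2 at an unadjusted p below 0.05. With trend and robust settings 2 of the 12 passed the threshold, and with ordinary t statistics 1 did. The lowest unadjusted limma p of the PYHIN genes named next was 0.063 (Ifi207). Ifi203, the brightest of those in the PYHIN family, differed by -0.10 (SE 0.07), and Ifi207, Ifi208, Ifi209, Ifi213, Ifi214, Ifi202b and Ifi205 by between -0.09 and 0.48. Beside these members, the 9 myeloid markers had a mean level of 3.78 to 3.85 in the Cre arrays and 3.69 to 3.76 in the EV arrays, with Lyz2 at 3.40 and 3.33 and 0 of the 9 passing. Their part in the Ly6c and Ifi readings was not tested.

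Dzip1 and Cldn10 are unrelated neighbours on chromosome 14. Dzip1 encodes a protein of the cilium base that acts in Hedgehog signalling, and Cldn10 a claudin. Their shared probe (10417004) read 5.75, 5.51 and 5.58 in Cre and 3.99, 3.93 and 4.27 in EV, 2.93-fold higher and the only member at least 2-fold higher. Each gene also has probes of its own. Dzip1's own probe rose from 4.65 ± 0.105 to 6.98 ± 0.0325 (SD, n = 3), by 2.33 log2 (SE 0.07; limma adjusted p = 4.41e-05), and kept its call whichever array was left out. The 2 probes of Cldn10 read between 2.71 and 3.11 and differed by 0.20 (SE 0.08) and 0.15 (SE 0.07), with limma adjusted p of 0.305 and 0.367.

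The remaining probes name chemosensory receptors and predicted genes, all close to the 0.4 limit and none with a group mean above 5.20. Vomeronasal receptor genes (Vmn1r), which detect pheromones, form a cluster on chromosome 13, and probe 10403988 names 16 of them. It read 4.83, 4.97 and 4.39 in Cre and 5.23, 5.30 and 5.06 in EV, 1.38-fold lower. A further 4 shared probes of the cluster were lower without overlap, by 0.24 to 0.37, where 23.4% of all probes lacked overlap in either direction. They name many of the same genes, so they are not separate findings. Of the 11 single-gene probes of these genes 0 passed in limma. Vmn1r189 differed most, at -0.69 (SE 0.23; adjusted p = 0.187), then Vmn1r214 at -0.30 (SE 0.07; adjusted p = 0.0641), and Vmn1r188, Vmn1r203, Vmn1r205, Vmn1r212, Vmn1r217, Vmn1r219, Vmn1r220, Vmn1r222 and Vmn1r-ps103 by between -0.17 and 0.12. Olfactory receptor genes of chromosome 11 were higher in Cre at 3 shared probes, 10375563 and 10375565 (Olfr10, Olfr1385, Olfr1386, Olfr1392 and Olfr1393) and 10375791 (Olfr51, Olfr1377 and Olfr1378), by 0.42 to 0.44. Probe 10375565 read 3.57, 3.45 and 3.71 in Cre and 3.34, 3.08 and 3.00 in EV, and probe 10375791 read 4.46, 4.59 and 4.59 in Cre and 3.90, 4.30 and 4.18 in EV. The single-gene probes of Olfr1393, Olfr1392 and Olfr10 differed by 0.09, 0.28 and 0.12, and those of Olfr1378, Olfr51 and Olfr1377 by -0.02, -0.02 and 0.02, with overlapping groups at all 6. Of these 6, 0 passed in limma, and 0 had an unadjusted p below 0.05 or passed with trend and robust settings or ordinary t statistics. Probe 10366180, of 9 predicted genes on chromosome 10, read 3.69, 3.64 and 3.67 in Cre and 4.28, 3.82 and 4.10 in EV, 1.32-fold lower, while a shared probe of 13 genes with most of the same names differed by 0.00.

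Just inside the limit lay probe 10510201 of the chromosome 4 zinc finger cluster, at 0.40, and the chromosome 10 probe, at -0.40. Just outside were a probe of Josd1 and Gm10651 (10561343), at -0.39, and one of the predicted genes Gm14744 and 5430402E10Rik (10605482), at 0.38. A further 3 shared probes differed by at least 0.4 but had overlapping groups, among them that of Gtf3c2 and Mpv17 (0.64, with EV values from 2.83 to 5.01).

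Genes named on the members also had 38 single-gene probes, of 35 genes. In limma's fit, adjusted over all 25006 probes, 2 of them rose and 2 fell (4 of 38, 10.5%), against 3.26% of all single-gene probes (1.22% rose and 2.04% fell) and 3.17% of all probes (1.22% and 1.95%). The 4 were Dzip1, Zfp991, Gm14403 and Pnp, and the direction of each was that of its shared probe. These genes were chosen because their shared probes differed on the same 6 arrays. So neither the share of 10.5% nor the common direction is independent of that choice, and neither is a test. The median difference of the 38 was -0.02, beside 0.0 over all probes. Single-gene probes whose symbols share a stem with a named gene, a looser kinship by name, numbered 1788, of which 6 rose and 15 fell (1.17%). Of 348 such zinc finger (Zfp) probes, 4 rose and 9 fell. Zfp182, on the X chromosome, rose by 1.78 (SE 0.13; limma adjusted p = 0.000775) and Zfp946 by 0.73 (SE 0.07; 0.00348), and Zfp873 fell by 0.79 (SE 0.09; 0.00506). All 3 kept their calls whichever array was left out.

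Of 1021 olfactory receptor probes outside the members' genes 0 passed in limma, with 101 at an unadjusted p below 0.05, 5 past the threshold with trend and robust settings and 0 with ordinary t statistics. For 22 serpin (Serpinb) probes the counts were 0, 7, 2 and 0 in the same order. Over all 1826 single-gene relatives, with those of the members' own genes, they were 25, 225, 58 and 5. The Vmn1r and Mir probes that follow passed in limma at 2.78% and 1.27%, against 3.26% of all single-gene probes. Among 108 Vmn1r probes, 3 fell: 2 of Vmn1r208, by 0.71 (SE 0.13) and 0.37 (SE 0.07), and 1 of Vmn1r200, by 0.41 (SE 0.08), calls that ended whichever array was left out, except that Vmn1r200 kept its own without EV replicate 1 (limma adjusted p up to 0.145). Of 237 microRNA probes with the stem Mir, which leaves out names with a suffix such as Mir19b-1, Mir17 and Mir18 fell, and Mir363 rose by 1.14 (SE 0.19; limma adjusted p = 0.0264) from a dim 2.93. Mir363 lies beside Mir92-2 in an X-linked relative of the Mir17hg cluster, and its call ended on leaving out any of the Cre replicates or EV replicate 2 (adjusted p up to 0.0936). Cldn1 rose by 0.70 (SE 0.10; limma adjusted p = 0.0174), a call that ended on leaving out replicate 1 or 2 of either group (up to 0.0761). Rmnd5b, a ubiquitin ligase subunit that shares only a name stem with Rmnd1, fell by 0.46 (SE 0.07; limma adjusted p = 0.0183), a call that ended whichever array was left out (up to 0.069).

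RefSeq's table gives a promoter for 84 of the 98 genes named on the members. In the 250 bases before the start, on either strand, CCAAT was found for 56 of the 84 (66.7%) and in 33.8% of 32851 promoters of all genes. Near-identical copies share such letters, so the 56 are not independent. The 84 are counted by gene and the 32851 by promoter, and a gene can have several, so the shares differ in unit. CACGTG, the E-box bound by MYC, was found for 3 of the 84 (3.57%; Rmnd1, Dzip1 and Vmn1r191) and in 6.02% of all promoters. TATAAA, the TATA box, was found for 7 (8.33%) and in 12.4% of all. The motifs do not contain one another. Median identity between the promoters of a group ranged from 32.2% for Cldn34c1 and Gm2411, below the 46.2% median for genes of different groups, to 99.6% for the predicted genes of chromosome 10.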

How the data were processed

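Expression was measured on 6 one-colour Affymetrix arrays, 3 Cre and 3 EV, grouped by their titles. The values are log2 levels deposited by the authors, made with RMA per the submitters' processing notes, which includes quantile normalization, so each change is relative to other genes. No source used here gives the RMA version. Genes of each probe came from the platform annotation: 21467 probes had 1 symbol, 1521 several and 2018 none. All 98 genes on the members were matched by symbol to RefSeq (GRCm38.p6), used for names, chromosomes and promoter and microRNA sequences.

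All 25006 probes were compared with limma 3.58.1 in R 4.3.3 (lmFit, eBayes, group only, no filter), with Benjamini-Hochberg adjustment over all probes and a threshold of 0.05. A change is Cre minus EV on the log2 scale, with limma's SE. The fit was tested on simulated data. Promoters were aligned with Biopython 1.88, and tables were built in pandas 2.3.3 under Python 3.11.15. The members, groups and lists were chosen with earlier results of these data known. Every member was named, with every single-gene probe of its genes, some of them within a range, and up to 3 passing relatives per symbol stem. Other microRNAs, Xlr, Ifi, Serpinb9, Cldn34b, Rtl8c, Tmsb15a, Myc and Xist were added after their values were seen. Alternatives were a replicate block, median centring, repeated quantile normalization, leaving out the dimmest 25% of probes, other variance settings, other limits and leaving out each array.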

Additional observations from a re-analysis of the deposited data

How the results depend on the processing

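The choice of members fixes their direction when an array is left out, so that shows no stability. Leaving out the dimmest 25% of probes removed 6 of the 36. Members higher and lower in Cre numbered 16 and 20, but 25 and 27 with a limit of 0.3 log2, 6 and 17 with 0.5, and 8 and 18 where a limma adjusted p below 0.05 replaced the lack of overlap. Leaving out 1 array gave 14 to 20 higher and 21 to 23 lower, with fewer arrays to overlap. Over all probes 305 rose and 487 fell: 807 and 1299 with trend and robust settings, 99 and 143 with ordinary t statistics, and 135 to 178 and 223 to 273 with 1 array left out. Of the single-gene relatives, 8 rose and 17 fell: 25 and 33 with trend and robust settings, 4 and 1 with ordinary t statistics, 2 and 2 for genes named on members alone, and 4 to 8 and 3 to 8 with 1 array left out, the lowest of both without Cre replicate 2. The cause was not tested. The labels do not say whether repeat numbers pair the arrays. Deviations of same-numbered arrays from their group means correlated at 0.0159, -0.0286 and 0.0677, and those of differently numbered arrays at -0.0806 to 0.071. Taken over all probes, such correlations cannot exclude a shared mouse or culture. With the replicate block, 150 probes rose and 251 fell, and 6 relatives rose and 6 fell. It ended the calls of Pnp, Gm14403, Cldn1, Mir18, Mir363, Vmn1r200 and probe 10408144 of Vmn1r208 (limma adjusted p from 0.0667 to 0.157). Calls that held included those of Dzip1, Zfp991, Mir17, Mir19b-1 and Myc (limma adjusted p up to 0.0416). With 3 arrays per group, the number of arrays limits what could pass.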
